A study of Arabidopsis thaliana with 18 samples.

Results

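Wild-type Arabidopsis thaliana seedlings sampled 24 h after the end of a long heat treatment were compared with wild-type seedlings kept at 22 °C. The recovery group (WT, 3 days at 37 °C followed by 24 h of recovery) and the 22 °C group (WT, 22 °C) held 3 libraries each. The genotype label of both groups is WT, with no allele named, and all seedlings grew on MS medium with sucrose. The comparison covered every gene with a mean abundance of at least 1 TPM (the authors' transcript level, scaled for gene length and library total) over these 6 libraries, which were 21082 of the 37916 genes in the deposited table. The study asked which heat-responsive genes depend on PRMT5, a protein arginine methyltransferase. Its other libraries, WT at the end of the heat (called heat end) and prmt5, a line with an insertion in PRMT5, enter here only for values set beside those of recovery and for the shared estimate of spread. The sources used here give neither the temperature of the recovery, nor the age of the plants, nor the hour at which they were collected, so for clock-controlled genes the treatment and the hour cannot be told apart.

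Long heat unfolds proteins and damages membranes and photosystems. Heat shock factors bind heat shock elements in promoters and switch on chaperones, which refold proteins or hold them until they can be refolded. During recovery the chaperone transcripts decline, while growth, ribosome production and photosynthesis may resume, and damaged organelles and proteins are removed by autophagy and the proteasome. Seedlings that fare badly can instead enter senescence, in which chloroplasts are dismantled and their nitrogen is exported.

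Pearson correlations across genes, which are not independent replicates, ran from 0.966 to 0.984 between the 22 °C libraries and from 0.968 to 0.976 between the recovery libraries. The 10 most abundant genes took 7.53 to 8.53% of all TPM at 22 °C and 4.40 to 4.84% at recovery. Between 13767 and 14176 genes were listed at 0 per 22 °C library, and between 11324 and 11807 per recovery library. Genes annotated as ribosomal RNA took 0.298 to 0.522% of TPM at 22 °C and 0.633 to 0.860% at recovery. Antenna and root marker genes, the defining genes of green shoot and root tissue, were present in all 6 libraries, as the seedling label requires, and 0 of 6 seed maturation markers reached 1 TPM. Summed TPM of 20 root markers was 273.0, 232.3 and 94.4 in the 22 °C libraries and 216.1, 267.2 and 154.8 at recovery, so 22 °C library 3 stood low. Recovery library 3 stood high in photosynthesis genes, as given with them. Sequencing depth cannot be read from TPM and is unknown. Whether replicate libraries came from plants grown apart is not stated in the labels. All p-values therefore rest on the spread between the libraries alone, and that spread may be technical.

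At 24 h after the heat, most measured genes differed from their 22 °C level. Of 21082 genes, 14359 (68.1%) passed an adjusted p of 0.05 in limma with Benjamini-Hochberg adjustment over all genes. Higher at recovery were 10524 genes (49.9%) and lower 3835 (18.2%), and of these 3809 were over 2-fold higher and 1656 over 2-fold lower on the log2(TPM + 1) scale used throughout. The recovery and 22 °C libraries did not overlap for 15897 genes (75.4%). The median log2 change over all genes was 0.34. TPM has the same total in every library, and Rubisco and other carbon fixation genes held 65173 to 71885 TPM of it at 22 °C and 8587 to 14781 TPM at recovery. Scaling the libraries by median ratios, which sets the median gene to 0.002, gave 6492 genes higher (30.8%) and 6644 lower (31.5%). The share of higher genes among those called thus went from 73.3 to 49.4%. Quantile normalization, which gives every library the same distribution of values, put the median at 0.021, with 7199 genes higher (34.1%) and 6790 lower (32.2%). A small rise of about the size of the median is therefore read only relative to it. Counts in a gene group are likewise read beside the shares of all genes, 49.9% higher and 18.2% lower. For each gene group whose balance moved, the same counts, in the same order, follow under median-ratio scaling (MR), and under quantile normalization (Q) where that gave another balance.

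**Figure D1:**
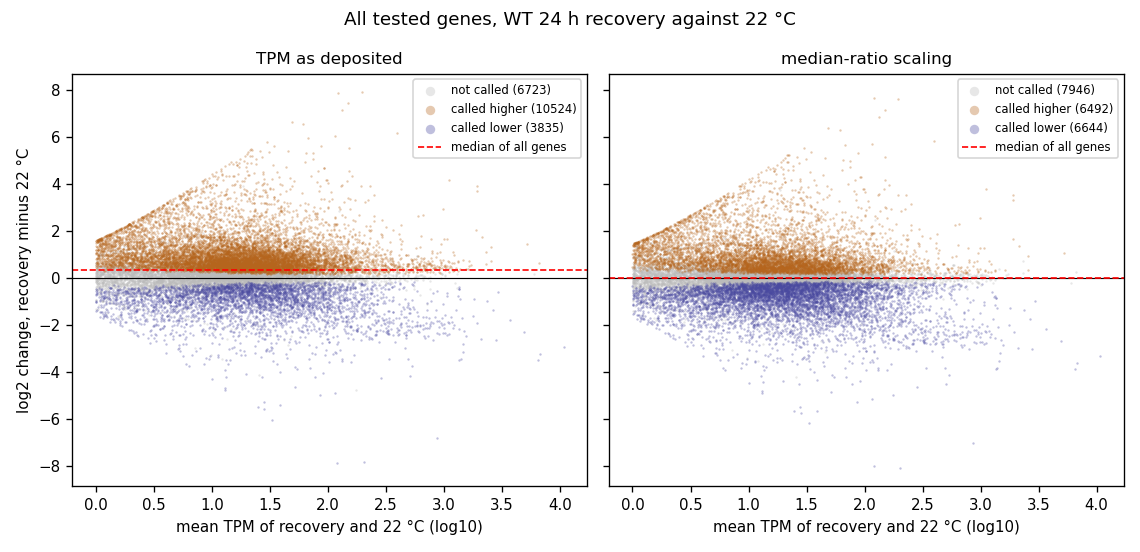
Log2 change of each of 21082 genes (recovery minus 22 °C, y axis) against its mean TPM over recovery and 22 °C on a log10 scale (x axis). One panel shows TPM as deposited and the other median-ratio scaling, with called genes coloured by direction and the median as a dashed line. The median sits at 0.34 in the first and at 0.002 in the other, and genes called higher number 10524 and 6492.

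Small heat shock protein genes, whose products hold unfolded proteins, were still raised at recovery but far below heat end. Of 19 members, 13 rose, 3 fell and 3 did not pass, with a median log2 change of 2.58 beside 0.34 for all genes (MR, 10 rose and 4 fell; Q, 10 and 5). For members at or near 0 TPM at 22 °C the size of the log2 change depends on the pseudocount, and 2 of them, HSP21 and HSP23.6-M, were listed at 0. HSP17.4-CI (AT3G46230), a cytosolic class I member, stood at 0.53, 0 and 0.21 TPM at 22 °C and at 29.1, 37.7 and 46.6 TPM at recovery. The log2 change was 4.96 ± 0.24 (SE, adjusted p = 1.6e-10, limma). HSP17.6C-CI (AT1G53540), of the same class, stood at 0.32, 0.3 and 0.39 TPM at 22 °C and at 30.5, 43.3 and 44.9 TPM at recovery (log2 change 4.90 ± 0.18, adjusted p = 9.2e-12). At heat end, which is compared with the same 22 °C libraries, their means were 538 and 833 TPM. HSP18.1-CI (AT5G59720) was an exception among them, since its recovery libraries (55.2, 65.5 and 58.8 TPM, against 0, 0.4 and 0 TPM at 22 °C) lay near its heat end mean of 98.1 TPM and did not pass the test against it (log2 difference -0.65, adjusted p = 0.1). Against heat end, where 64.4% of all genes passed (33% higher and 31.4% lower at recovery), 16 of the 19 members were lower at recovery and 0 higher. Promoters were read from the TAIR10.1 genome as the 300 bases before each gene's start, and searched on both strands for a heat shock element of 3 units, GAA and TTC in alternation with any 2 bases between units. It was present in 99 of 19638 promoters (0.504%), and in 2 of the 19 small heat shock protein promoters (10.5%), both of which are shown with the element in capitals, 5′ to 3′ on the gene's strand, because these genes are among the 15 highest. HSP17.4-CI holds 2 copies, at 99 to 87 and at 18 to 6 bases before its start, of which the first is shown (chr3:16984924-16984996, minus strand). HSP17.6C-CI holds 1, at 53 to 41 bases (chr1:19980216-19980288, plus strand). A match describes letters only, and a promoter without one says nothing of the factor.
HSP17.4-CI: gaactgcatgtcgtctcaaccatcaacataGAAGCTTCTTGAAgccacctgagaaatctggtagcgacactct
HSP17.6C-CI: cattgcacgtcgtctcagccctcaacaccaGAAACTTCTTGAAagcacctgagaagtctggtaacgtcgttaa

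Small heat shock proteins of organelles followed. HSP22-ER (AT4G10250), of the endoplasmic reticulum, was 0.13, 0 and 0 TPM at 22 °C and 16.9, 21.5 and 33.9 TPM at recovery, against a mean of 415 TPM at heat end. The plastid HSP21 (AT4G27670), like the next gene named after its values were seen, was listed at 0 in all 3 libraries at 22 °C and stood at 7.98, 8.69 and 17.1 TPM at recovery, with 543 TPM at heat end. In the opposite direction, HSP17.4-CIII (AT1G54050) fell below its 22 °C level, from 9.97, 11.1 and 13.9 to 3.17, 2.8 and 3.31 TPM (log2 change -1.62 ± 0.13, adjusted p = 3e-08), although its heat end mean was 75.2 TPM. Summed over the family, TPM ran from 167 to 178 at 22 °C and from 364 to 457 at recovery, beside a mean of 7666 at heat end.

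The larger chaperones had dropped below their 22 °C levels in sum, led by housekeeping members. HSC70-1 (AT5G02500), a constitutive cytosolic HSP70, was 1424, 1401 and 1297 TPM at 22 °C and 393.8, 424.9 and 334.3 TPM at recovery. Its groups stood far apart (log2 change -1.84 ± 0.12, adjusted p = 3.2e-09, limma), and the mean at heat end was 816 TPM. HSC70-3 (AT3G09440), a second constitutive member, went from 296.2, 291 and 283.3 to 64.1, 68.7 and 59.5 TPM (log2 change -2.16 ± 0.09). Plastid chaperones fell too, CPN20 (AT5G20720), a co-chaperonin, from a mean of 1271 to 405 TPM and CPHSC70-2 (AT5G49910) from 312 to 96.7 TPM. Across 29 tested HSP60, HSP70, HSP90 and HSP100 genes, 13 rose and 11 fell (MR, 9 and 14; Q, 12 and 12; median 0.19), and their summed TPM went from 6380 to 6674 at 22 °C to 3582 to 3749 at recovery. Compared with heat end, 26 of the 29 were lower and 0 higher. A pair of heat-inducible genes, chosen after their values were seen, did not pass the test against 22 °C. HSP101 (AT1G74310), the disaggregase of thermotolerance, was 6.12, 5.18 and 5.41 TPM at 22 °C and 3.89, 4.83 and 5.74 TPM at recovery (log2 change -0.19, adjusted p = 0.25), with 93.4 TPM at heat end. HSFA2 (AT2G26150), a heat shock factor that extends thermotolerance, was 1.54, 1.68 and 1.03 against 0.51, 0.99 and 1.17 TPM (log2 change -0.36, adjusted p = 0.14), with 55.1 TPM at heat end.

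Of 18 heat shock factor genes, 11 rose (61.1%, beside 49.9% of all genes) and 3 fell (16.7%, beside 18.2%). Under MR 9 rose and 6 fell, and under Q 9 and 7. HSFA8 (AT1G67970; log2 change 2.31 ± 0.15), HSFA4A (AT4G18880; 2.24 ± 0.13) and HSFA3 (AT5G03720; 2.08 ± 0.14) led. HSFA3, a factor downstream of DREB2A, was 8.92, 9.52 and 13.8 TPM at recovery against 1.63, 1.71 and 1.87 TPM at 22 °C, and the groups did not overlap. Among 18 co-chaperones and thermotolerance factors 9 rose and 2 fell, a share of higher genes near that of all genes (MR, 6 and 6; Q, 7 and 4). ROF2 (AT5G48570), an HSP90-binding immunophilin, had all but returned, from 838 TPM at heat end to 10.2, 12.6 and 15.71 TPM, but remained above its 22 °C values of 6.43, 5.66 and 4.75 TPM (log2 change 1.05 ± 0.16, adjusted p = 3.2e-05). TIL (AT5G58070), a temperature-induced lipocalin of membranes, had a mean of 194 TPM at recovery and 191 TPM at heat end, against 67.8 TPM at 22 °C.

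**Figure D2:**
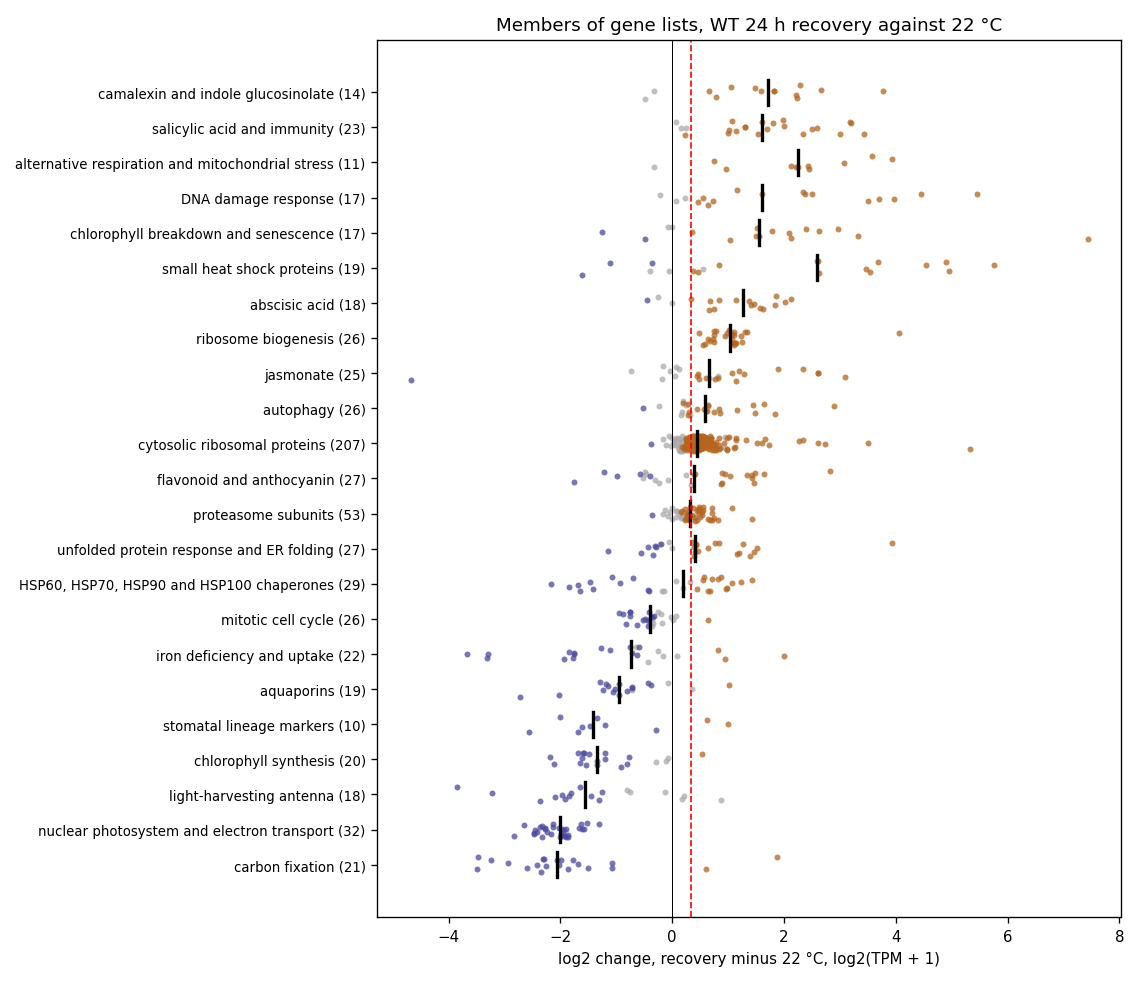
Log2 change (recovery minus 22 °C, x axis) of each tested member of 23 gene groups (rows), coloured by whether it was called higher, lower or neither, with the median of each group as a bar and the median of all genes, 0.34, as a dashed line. All 32 photosystem genes lie on the lower side, all 26 ribosome biogenesis genes on the higher side, and small heat shock proteins spread around a median of 2.58.

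Photosynthesis genes held the largest losses in abundance. RBCS1A (AT1G67090), a small subunit of Rubisco, the carbon-fixing enzyme, was 17938, 18746 and 20228 TPM at 22 °C and 2141, 2021 and 3545 TPM at recovery. Every recovery library lay far below every 22 °C library, with a log2 change of -2.93 ± 0.25 (adjusted p = 6.4e-08, limma). Its mean at heat end was 1429 TPM, so that recovery was higher by 0.85 on the log2 scale (adjusted p = 0.0075). The near-identical RBCS1B, RBCS2B and RBCS3B, among which reads cannot be assigned with certainty, had log2 changes of -2.29, -3.25 and -3.50. Of the 10 largest losses in TPM, 7 were Rubisco, its activase RCA, the antenna gene LHCB1.3 and the photosystem II gene PSBR. The other three were THI1 of thiamine synthesis, OEP6 of the plastid envelope and GER3, a germin-like protein.

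All 32 nuclear photosystem and electron transport genes fell (MR, also 32), with a median of -2.02, and their summed TPM was 47738 to 54120 at 22 °C and 9124 to 17611 at recovery. PSBR (AT1G79040), of the oxygen-evolving side of photosystem II, went from 4574, 4575 and 5209 to 624.4, 574.1 and 1218 TPM (log2 change -2.65 ± 0.27, adjusted p = 4.1e-07). It was lower at recovery than at heat end, where the mean was 2812 TPM (log2 difference -1.86). PETE2 (AT1G20340), a plastocyanin that carries electrons to photosystem I, fell from a mean of 2553 to 372 TPM, below its heat end mean of 918 TPM. Against heat end 2 of the 32 were higher, 5 lower, and the rest did not pass.

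Of 21 carbon fixation genes 19 fell and 2 rose (MR, 19 and 1; median -2.06), with the summed TPM given above. CA1 (AT3G01500), the plastid carbonic anhydrase, was 2474, 2526 and 2417 TPM at 22 °C and 214.1, 153.2 and 326 TPM at recovery (log2 change -3.48 ± 0.43, adjusted p = 3.1e-06). CP12-2 (AT3G62410), a small protein that links Calvin cycle enzymes, fell by 3.47 ± 0.39 and FBA5 (AT4G26530), an aldolase, by 4.05 ± 0.52. Of 18 antenna genes 12 fell and 0 rose (median -1.56). LHCB4.3 (AT2G40100), a minor antenna protein of photosystem II, went from 120.9, 122.5 and 150.9 to 8.06, 8.11 and 8.21 TPM (log2 change -3.85 ± 0.23), while LHCB1.3 (AT1G29930), one of several near-identical major antenna genes, went from 5107, 5370 and 6485 to 1415, 1122 and 2592 TPM (-1.81 ± 0.41). In both lists recovery library 3 held the highest summed TPM of the recovery group (8146 beside 3238 and 4272 for the antenna), and still lay below the lowest 22 °C library, at 13159. Chlorophyll synthesis fell alongside, with 16 of 20 genes lower and 1 higher (median -1.34), among them CHLM (AT4G25080; log2 change -2.12 ± 0.21) and DVR (AT5G18660; -2.18 ± 0.18). Of 48 tested plastid-encoded genes 17 were lower and 0 higher (MR, 27 and 0; Q, 32 and 0). In such seedling material fewer green cells and less RNA per cell cannot be told apart.

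**Figure D3:**
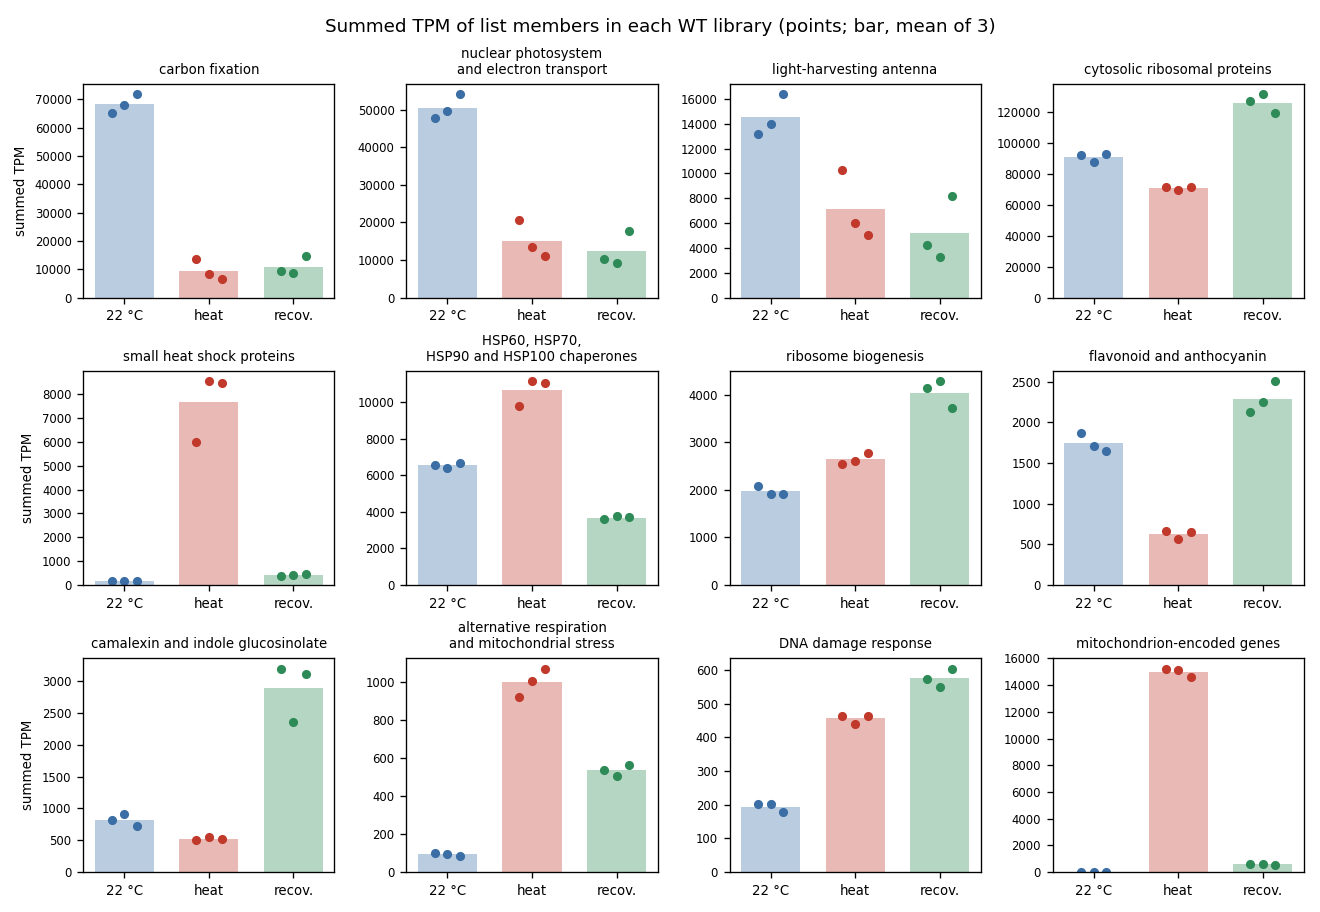
Summed TPM (y axis) of 12 gene groups in each library of WT at 22 °C, heat end and recovery (x axis), with bars for the mean of 3 libraries. Carbon fixation sits at 65173 to 71885 at 22 °C and at 8587 to 14781 at recovery. DNA damage response, camalexin and indole glucosinolate, and ribosome biogenesis genes are higher at recovery than at 22 °C in every library.

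The highest change of any named gene was in a senescence marker. SAG13 (AT2G29350), a short-chain dehydrogenase gene associated with senescence, was 1.35, 0.54 and 0.44 TPM at 22 °C and 333.7, 291.3 and 272.3 TPM at recovery. This is a log2 change of 7.43 ± 0.42 (adjusted p = 8.5e-10, limma), and its mean at heat end was only 2.94 TPM. RNS1 (AT2G02990), a secreted ribonuclease, went from 2.38, 3.17 and 1.93 to 245.6, 221.1 and 216.5 TPM (log2 change 6.05 ± 0.26), with 49.0 TPM at heat end. ENDO2 (AT1G68290), a nuclease, went from 0.4, 0.76 and 0.44 to 42.6, 39.3 and 34.5 TPM (log2 change 4.70 ± 0.17). GPT2 (AT1G61800), a plastid glucose 6-phosphate transporter, was 11.9, 6.73 and 10.9 TPM at 22 °C, 344.3 ± 98.0 TPM at heat end (SD, n = 3) and 945.2, 865.7 and 545.3 TPM at recovery (log2 change 6.18 ± 0.26, adjusted p = 4e-11). None of these recovery libraries came near the 22 °C range.

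Of 17 tested genes of chlorophyll breakdown and senescence 13 rose and 2 fell (median 1.55, and 0.66 at heat end), and 9 were higher and 4 lower than at heat end. SAG101 (AT5G14930), a lipase-like immune and senescence protein, went from 7.06, 8.38 and 8.57 to 74.0, 67.8 and 65.5 TPM (log2 change 2.96 ± 0.14). WRKY53 (AT4G23810), a transcription factor that promotes leaf senescence, was 46.0, 35.8 and 43.7 TPM at recovery, against 5.43, 4.85 and 7.67 TPM at 22 °C and a mean of 4.36 TPM at heat end. WRKY46 (AT2G46400), a related factor, rose from 1.64, 1.42 and 1.19 to 70.9, 56.2 and 72.2 TPM (log2 change 4.80 ± 0.12, adjusted p = 4.6e-13). Sugar starvation genes gave no such picture, with 9 of 19 higher and 3 lower (MR, 4 and 7). Without recovery library 2, 5 of them were lower, and without recovery library 1 or 2 only 1 gene of the senescence list was lower.

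Recycling genes rose in part. Of 26 autophagy genes 19 rose and 1 fell (MR, 12 and 3; median 0.59), and 16 of them were lower than at heat end. ATG8B (AT4G04620), a ubiquitin-like protein of the autophagosome membrane, went from 11.1, 8.93 and 6.17 to 69.7, 75.9 and 65.0 TPM (log2 change 2.90 ± 0.16). NBR1 (AT4G24690), a receptor that brings ubiquitinated cargo to autophagosomes, went from 89.8, 95.0 and 81.5 to 323.2, 287.7 and 351.4 TPM (1.84 ± 0.09), above its heat end mean of 258 TPM. Of 53 proteasome subunit genes 38 rose and 1 fell, with a median of 0.31 beside 0.34 for all genes. Under median-ratio scaling 9 rose and 13 fell (median -0.07), and under quantile normalization 26 rose and 6 fell (median 0.17 beside 0.021 for all genes). In the unfolded protein response of the endoplasmic reticulum 17 of 27 genes rose (63%, beside 49.9% of all genes) and 7 fell (MR, 10 and 10; Q, 14 and 7). NAC103 (AT5G64060), a transcription factor of that response, went from 0.27, 0.66 and 0.08 to 19.0, 20.23 and 18.3 TPM (log2 change 3.94 ± 0.18).

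DNA damage genes were mostly higher at recovery. Of 17 such genes 14 rose and 0 fell (MR, 11 and 1; Q, 12 and 2; median 1.60), with summed TPM of 179 to 202 at 22 °C, 548 to 605 at recovery and a mean of 456 at heat end. SMR5 (AT1G07500), an inhibitor of cyclin-dependent kinases, was listed at 0 in all 3 libraries at 22 °C and stood at 48.5, 26.7 and 59.4 TPM at recovery (adjusted p = 9.1e-11, limma). SMR7 (AT3G27630), a second such inhibitor, went from 2.6, 2.23 and 2.19 to 57.4, 52.3 and 44.3 TPM (log2 change 3.97 ± 0.15, adjusted p = 1e-11), and its heat end mean was 4.94 TPM. NAC044 (AT3G01600) and NAC085 (AT5G14490), transcription factors that hold the cycle before division after DNA damage, both rose. The first was 1.16, 1.46 and 0.75 TPM at 22 °C and 41.8, 44.8 and 48.4 TPM at recovery, below its 106 TPM at heat end. The other rose from 0.08, 0 and 0 to 11.9, 12.7 and 12.2 TPM. GMI1 (AT5G24280), which acts in somatic homologous recombination and was chosen after its values were seen, rose by 3.51 on the log2 scale, to 32.4, 31.0 and 37.6 TPM.

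Mitotic genes were mostly lower, and the median replication gene changed about as much as the median of all genes. Of 26 mitotic cell cycle genes 14 fell and 1 rose (MR, 24 and 0), with a median of -0.39 beside 0.34 for all genes. The count was 9 without 22 °C library 1, 22 °C library 3 or recovery library 3, each left out in turn. KN (AT1G08560), the KNOLLE syntaxin of cell plate formation, went from 66.1, 64.8 and 73.1 to 36.6, 41.7 and 35.4 TPM (log2 change -0.83 ± 0.14), and the groups did not overlap. CYCA2;3 (AT1G15570), an A-type cyclin, fell by 0.95 ± 0.19. Against heat end 15 of the 26 were higher at recovery and 3 lower. Among 21 replication genes 12 rose (57.1%, beside 49.9% of all genes) and 1 fell (MR, 6 and 3), with a median of 0.40. TK1A (AT3G07800), a thymidine kinase, and RNR1 (AT2G21790), the large subunit of ribonucleotide reductase, had log2 changes of 1.11 ± 0.10 and 1.01 ± 0.13.

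**Figure D4:**
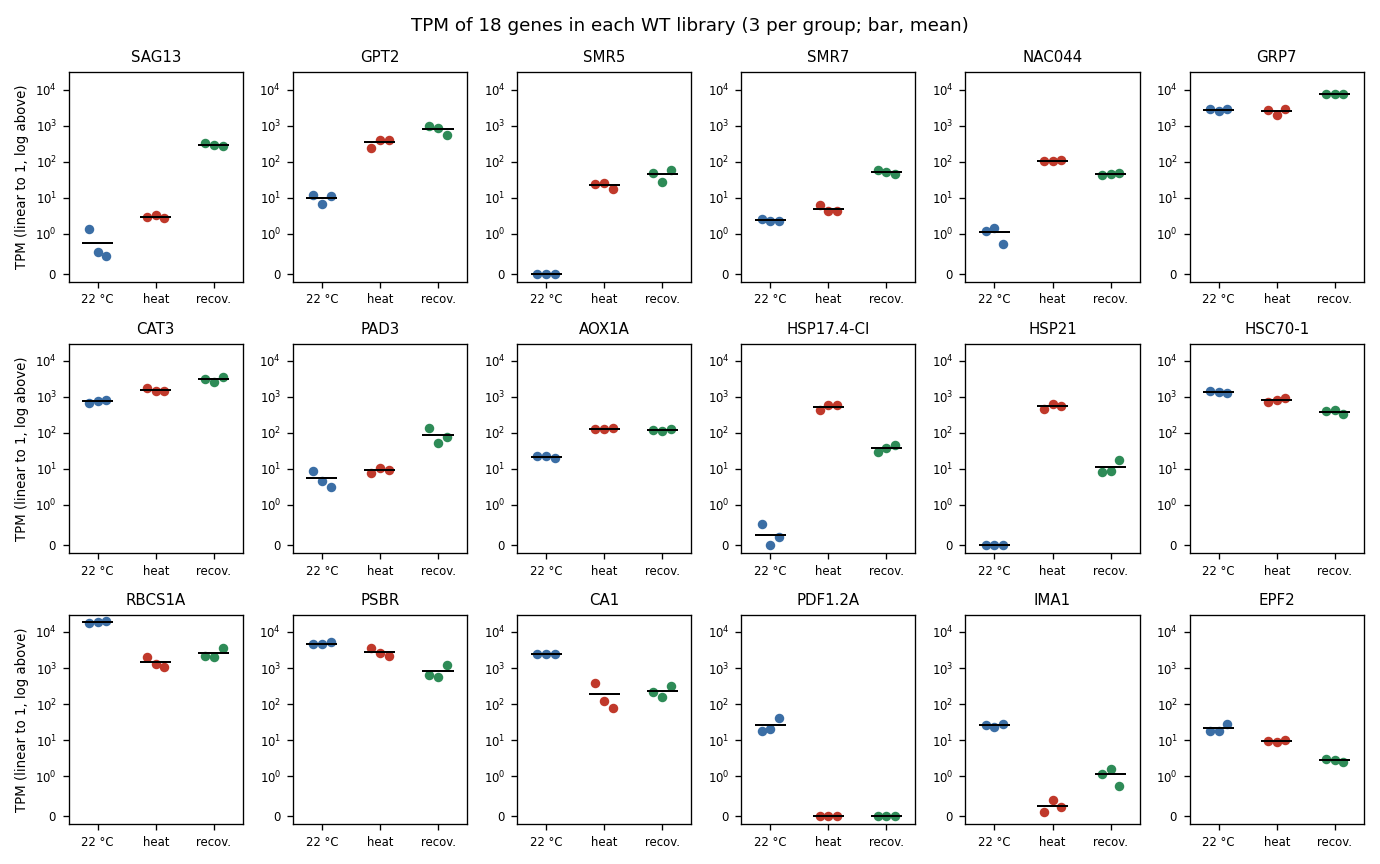
TPM (y axis, linear up to 1 and logarithmic above) of 18 named genes in each library of WT at 22 °C, heat end and recovery (x axis), with a bar at each group mean. SAG13, SMR7 and PAD3 are highest at recovery, HSP17.4-CI and HSP21 peak at heat end, and RBCS1A, CA1 and EPF2 stay low in both.

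Genes of ribosome biogenesis were raised across their list, which was chosen with earlier results of these data known. Small nucleolar RNA genes were not raised as a class (median -0.86, with 7 of 52 higher and 4 lower). All 26 ribosome biogenesis genes rose (MR, 25 rose and 0 fell), with a median of 1.04 beside 0.59 at heat end, and summed TPM went from 1910 to 2093 at 22 °C to 3725 to 4288 at recovery. NUC1 (AT1G48920), the main nucleolin, was 360, 317.1 and 333.7 TPM at 22 °C and 843.7, 854.1 and 710.6 TPM at recovery (log2 change 1.25 ± 0.14), while its heat end mean was 331 TPM. NUC2 (AT3G18610), a nucleolin normally kept low, went from 1.73, 2.72 and 1.53 to 53.4, 47.6 and 44.5 TPM (log2 change 4.06 ± 0.16, adjusted p = 1.4e-11), near its heat end mean of 53.2 TPM. SWA1 (AT2G47990) and TOZ (AT5G16750), which act in processing of ribosomal RNA, rose from means of 23.59 to 61.2 TPM and of 16.5 to 42.0 TPM.

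Cytosolic ribosomal protein genes, many of them near-identical copies whose reads are hard to tell apart, were higher in 175 of 207 cases and lower in 1. Their count depended on the scaling. Median-ratio scaling left 54 that rose and 21 that fell, and quantile normalization gave 181 and 1. The median was 0.45 beside 0.34 for all genes in TPM as deposited, 0.07 beside 0.002 under median-ratio scaling, and 0.57 beside 0.021 under quantile normalization. Their summed TPM was 88180 to 93385 at 22 °C, a mean of 70960 at heat end and 119420 to 131900 at recovery, and 172 of them were above heat end. A telo box (AAACCCTAA, either strand) was present in 4 of 26 ribosome biogenesis promoters and in 18 of 207 ribosomal protein promoters (8.7%), beside 2.47% of all promoters.

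Mitochondrial transcripts and the genes that answer mitochondrial stress were higher. Of 11 genes of alternative respiration and mitochondrial stress 10 rose and 0 fell (median 2.25), with summed TPM from 87.1 to 98.8 at 22 °C and from 509 to 563 at recovery. AOX1A (AT3G22370), the alternative oxidase that bypasses the cytochrome pathway, was 22.3, 22.3 and 19.8 TPM at 22 °C and 122.8, 113.2 and 128.2 TPM at recovery (log2 change 2.45 ± 0.10, adjusted p = 1.8e-11), and its heat end mean was 129 TPM. UPOX (AT2G21640), a mitochondrial protein induced by oxidative stress, rose from 8.78, 8.63 and 11.47 to 145.8, 151.7 and 182.5 TPM, while OM66 (AT3G50930), an outer membrane ATPase, and NDB2 (AT4G05020), an alternative NADH dehydrogenase, rose by 3.57 ± 0.19 and 3.07 ± 0.21 on the log2 scale. Of 21 tested mitochondrion-encoded genes 20 were higher and 0 lower (median 3.48). They stood far below heat end, against which 19 were lower at recovery and 1 higher. All mitochondrion-encoded genes together, tested or not, took 0.0876 to 0.1094% of TPM at recovery and 0.0051 to 0.0082% at 22 °C. At heat end that share was 2.1715 to 2.425%. Most organelle transcripts lack long poly(A) tails, so oligo-dT selection, used for these libraries, takes up only part of them. The nuclear genome also holds a copy of the mitochondrial genome, and how reads were divided between the copies was not tested. Among 37 genes of reactive oxygen removal 15 rose and 14 fell (MR, 10 and 20; Q, 13 and 16). CSD1 (AT1G08830), a cytosolic superoxide dismutase, rose from 60.5, 45.5 and 43.4 to 311.5, 382.4 and 265.6 TPM, whereas TAPX (AT1G77490), the thylakoid ascorbate peroxidase, fell from 76.6, 76.3 and 91.6 to 10.4, 9.2 and 15.6 TPM.

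Genes of salicylic acid and immunity mostly rose. Of 23 tested salicylic acid and immunity genes 20 rose and 0 fell (MR, 19 and 0; median 1.61). NIMIN2 (AT3G25882), which binds the salicylic acid receptor NPR1, went from 5.3, 5.06 and 4.3 to 68.0, 54.1 and 40.7 TPM (log2 change 3.20 ± 0.16, adjusted p = 2.9e-10). SARD1 (AT1G73805), a transcription factor that raises salicylic acid synthesis, went from 0.73, 0.44 and 0.65 to 14.1, 10.5 and 10.9 TPM. PR2 (AT3G57260), a glucanase that marks the salicylic acid response, was 0.98, 1.13 and 0.53 TPM at 22 °C and 10.6, 8.28 and 44.2 TPM at recovery, where library 3 stood well above the rest.

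Genes of camalexin, the main antimicrobial alkaloid of Arabidopsis, and of indole glucosinolates rose at recovery, where most also stood above heat end. Of 14 tested members 12 rose and 0 fell (MR, 11 and 2; median 1.71, beside -0.35 at heat end), and 11 were higher at recovery than at heat end, with 0 lower. PAD3 (AT3G26830), which makes camalexin in the last step, was 8.62, 4.73 and 3.12 TPM at 22 °C, 9.30 TPM on average at heat end, and 138.7, 50.7 and 79.0 TPM at recovery (log2 change 3.77 ± 0.38, adjusted p = 4.2e-07). GSTF6 (AT1G02930), a glutathione transferase of camalexin synthesis, went from 165.2, 200.3 and 165.5 to 1260, 864.5 and 1285 TPM, against 40.0 TPM at heat end. CYP79B2 (AT4G39950), which commits tryptophan to both pathways, rose by 2.23 ± 0.22 on the log2 scale. Aliphatic glucosinolate genes were mostly not past the threshold, with 2 of 19 higher and 2 lower (MR, 1 and 6; Q, 2 and 5).

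Jasmonate genes rose more often than they fell. Of 25 tested members 15 rose (60%, beside 49.9% of all genes) and 1 fell (MR, 10 and 3). JAZ1 (AT1G19180), a repressor made in response to the hormone, was 12.1, 11.3 and 9.73 TPM at 22 °C and 121.2, 111.0 and 77.6 TPM at recovery. The defensin genes PDF1.2A and PDF1.3, markers of the joint jasmonate and ethylene branch, were instead among the 15 lowest. PDF1.2A (AT5G44420) was 17.83, 20.4 and 39.9 TPM at 22 °C and was listed at 0 in all 3 recovery libraries (adjusted p = 5.6e-10, limma). PDF1.3 (AT2G26010) went from 42.5, 45.1 and 60.9 to 0.13, 0 and 0.16 TPM (log2 change -5.51 ± 0.43). PRB1 (AT2G14580), a basic PR1-like protein, went from 20.7, 19.3 and 19.95 to 0.15, 0 and 0 TPM. Genes of abscisic acid, the drought hormone, were higher in 15 of 18 cases and lower in 1 (median 1.26), among them ABF3 (AT4G34000), a transcription factor of the response (log2 change 1.84 ± 0.20), and CYP707A4 (AT3G19270), which breaks the hormone down and stood at 12.6 TPM against 194 TPM at heat end and 2.15 TPM at 22 °C.

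**Figure D5:**
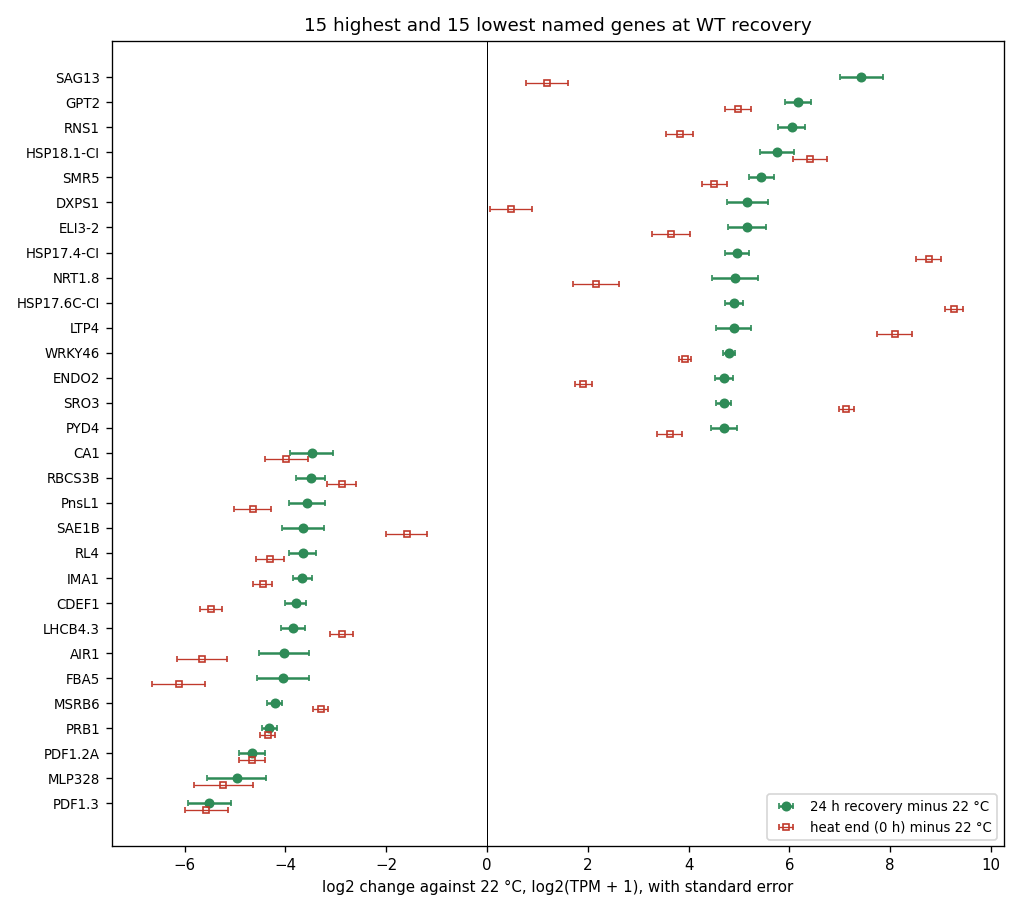
Log2 change against 22 °C with its SE (x axis) for the 15 highest and 15 lowest named genes (rows), with recovery as circles and heat end as squares, both measured against the same 22 °C libraries. SAG13 lies at 7.43 for recovery and at 1.18 for heat end, and HSP17.6C-CI lies at 4.90 for recovery with its heat end value further right.

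Among the largest gains in abundance stood lipid transfer-like proteins, metallothioneins and RNA-binding proteins. GRP7 (AT2G21660), a glycine-rich RNA-binding protein that is regulated by the clock and is known as a substrate of PRMT5, was 2912, 2588 and 2902 TPM at 22 °C and 7770, 7668 and 7434 TPM at recovery. The groups did not overlap, and the gain of 4824 TPM went with a log2 change of 1.45 ± 0.15 (adjusted p = 3.7e-07, limma), while heat end stood at 2589 TPM. Its homologue GRP8 (AT4G39260) went from 580.3, 565.7 and 416.9 to 1695, 1680 and 1502 TPM (log2 change 1.65 ± 0.11). CAT3 (AT1G20620), a catalase that peaks in the evening, went from 664.2, 763.5 and 804.0 to 3068, 2543 and 3579 TPM (2.03 ± 0.23). MT2A (AT3G09390), a metallothionein that binds copper and zinc, went from 894.6, 1050 and 1004 to 3451, 3011 and 3324 TPM (1.73 ± 0.18). The metallothionein MT2B, also among these gains (log2 change 0.64), did not pass under median-ratio scaling. The level of a further one, MT1A, at recovery is undetermined. AZI1 (AT4G12470) and EARLI1 (AT4G12480), neighbouring lipid transfer-like genes of systemic immunity that are similar in sequence, were 4652, 4279 and 1723 TPM and 4442, 4513 and 1707 TPM at recovery. At 22 °C they were 216, 442.6 and 157.1 TPM and 180.3, 567.9 and 96.4 TPM, so the groups did not overlap although recovery library 3 stood lowest in both.

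The evening element, AAAATATCT on either strand, is the site through which morning clock factors repress evening genes. It was present in 579 of 19638 promoters (2.95%), in 3.1% of those of genes called higher and 2.94% of those called lower. It was found in 5 of the 10 genes with the largest gains in TPM, in 1 of the 10 with the largest losses, and in 1 of the 15 highest changes. Those 5 promoters are shown with 1 copy in capitals, 5′ to 3′ on the gene's strand in TAIR10.1, because they belong to genes with the largest gains. GRP7 holds 3 copies, MT2A 2 and the others 1. The stretches lie at chr2:9266595-9266663 (GRP7, minus strand), chr4:18275217-18275258 (GRP8, minus strand), chr1:7142863-7142931 (CAT3, plus strand), chr3:2890602-2890670 (MT2A, minus strand) and chr4:7407016-7407084 (EARLI1, minus strand).
GRP7: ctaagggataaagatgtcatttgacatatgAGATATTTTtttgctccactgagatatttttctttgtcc
GRP8: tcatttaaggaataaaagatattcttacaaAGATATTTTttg
CAT3: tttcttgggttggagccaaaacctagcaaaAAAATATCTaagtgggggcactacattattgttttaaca
MT2A: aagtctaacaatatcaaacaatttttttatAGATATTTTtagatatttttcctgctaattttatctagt
EARLI1: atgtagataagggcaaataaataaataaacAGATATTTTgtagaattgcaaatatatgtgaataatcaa

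Clock genes themselves differed from 22 °C. GI (AT1G22770), an evening gene that links the clock to flowering, was 2.95, 2.76 and 1.44 TPM at 22 °C and 27.9, 23.7 and 25.2 TPM at recovery (log2 change 3.00 ± 0.16, adjusted p = 3.5e-10). PRR7 (AT5G02810), a daytime repressor of the morning genes, went from 1.14, 0.9 and 0.99 to 15.35, 13.3 and 17.5 TPM (3.02 ± 0.13), below its 45.9 TPM at heat end. Of 13 tested morning genes 8 rose and 4 fell (MR, 6 and 4; Q, 6 and 5), and of 13 evening genes 5 rose and 1 fell (MR, 5 and 5). Summed TPM of the morning genes was nonetheless lower, at 129 to 146 at recovery against 191 to 197 at 22 °C. That of the evening genes was higher, at 538 to 614 against 330 to 389. Without recovery library 1, 2 morning genes were lower. Compared with heat end 12 of the 13 morning genes were lower and 0 higher. The evening element was present in 5 of 13 evening gene promoters (38.5%), and a G box (CACGTG) in 6 of 13 morning gene promoters (46.2%) beside 7.92% of all promoters. Of 16 tested flowering time genes 3 rose and 5 fell (MR and Q, 1 and 9). Among those that fell were CO (AT5G15840), a photoperiod factor, from a mean of 3.37 to 0.87 TPM and its target FT (AT1G65480), the mobile flowering signal, from 4.59, 5.99 and 3.51 to 0.53, 1.04 and 0.46 TPM. FLC (AT5G10140), a repressor of FT, rose from 6.31, 7.52 and 5.87 to 21.0, 17.2 and 19.0 TPM, and stood at 6.28 TPM at heat end.

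Most iron deficiency genes were lower. Of 22 tested iron deficiency genes 14 fell and 3 rose (MR, 17 and 3; median -0.73). IMA1 (AT1G47400), a peptide that signals iron shortage, was 27.1, 23.1 and 28.4 TPM at 22 °C and 1.17, 1.56 and 0.75 TPM at recovery (log2 change -3.67 ± 0.19, adjusted p = 3.5e-10), and IMA2 (AT1G47395) fell by 3.29 ± 0.21. IRT1 (AT4G19690), the root iron transporter, was 34.3, 21.9 and 1.27 TPM at 22 °C and 0.17, 0.62 and 0 TPM at recovery (log2 change -3.31 ± 0.72), and the low 22 °C library is the one with few root marker transcripts. Of 7 genes of iron storage, ferritins and vacuolar transporters, 4 rose and 0 fell (MR and Q, 3 and 1), a share near that of all genes. The plastid ferritins FER1 (AT5G01600) and FER2 (AT3G11050) rose, FER1 from 109.2, 181.3 and 111.0 to 362.3, 372.8 and 616.1 TPM and FER2 from 1.81, 2.79 and 1.54 to 29.8, 29.3 and 32.6 TPM.

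Flavonoid genes stood above their heat end levels. Their median was 0.40 at recovery and -1.52 at heat end, and 24 of 27 tested genes were higher at recovery than at heat end, with 0 lower. Against 22 °C 13 rose and 5 fell (MR, 10 and 9). PAP1 (AT1G56650), the MYB factor that switches on anthocyanin synthesis, was 8.14, 7.21 and 10.3 TPM at 22 °C and 56.7, 52.7 and 95.8 TPM at recovery (log2 change 2.82 ± 0.39, adjusted p = 1e-05). UGT75C1 (AT4G14090), which adds glucose to anthocyanins, went from 22.8, 23.8 and 26.46 to 69.9, 74.9 and 90.9 TPM, and FLS1 (AT5G08640), which draws the same precursors into flavonols, fell from 142.1, 131.5 and 101.6 to 31.6, 41.1 and 35.9 TPM.

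Most water channel genes fell, hypoxia genes fell more often than they rose, and nitrogen and growth genes were divided. Of 19 aquaporins 15 fell and 1 rose (MR, 16 and 1; median -0.95), and TIP1;1 (AT2G36830), a channel of the vacuole membrane, went from 517.6, 454.3 and 478.7 to 60.7, 81.4 and 77.3 TPM (log2 change -2.72 ± 0.19) although its heat end mean was 413 TPM. In nitrogen use 7 of 18 genes rose and 7 fell (MR, 5 and 8; Q, 6 and 7). NRT2.1 (AT1G08090), a high-affinity nitrate transporter, rose from 1.35, 0.79 and 1.4 to 17.1, 22.4 and 17.0 TPM, having stood at 0.07 TPM at heat end. NRT1.8 (AT4G21680), which removes nitrate from the xylem, rose from 1.91, 5.51 and 1.84 to 179.1, 139.3 and 57.2 TPM. The plastid glutamine synthetase GLN2 (AT5G35630) fell from a mean of 1452 to 289.5 TPM, and the cytosolic GLN1;3 (AT3G17820) rose from 72.5 to 251.4 TPM. Among hypoxia genes 6 of 12 fell and 1 rose (MR, 8 and 0; Q, 8 and 1), but 10 fell without 22 °C library 3, and 3 in the fit of the 6 libraries alone. Summed TPM over the list was 201.4 in 22 °C library 3 beside 629.2 and 642.1 in the other 22 °C libraries. SUS4 (AT3G43190), a sucrose synthase of that list, was 43.0, 39.3 and 4.93 TPM at 22 °C and 4.31, 4.75 and 4.78 TPM at recovery. Of 25 tested cell elongation genes 9 rose and 8 fell (MR, 8 and 11), with EXPA5 (AT3G29030), an expansin that loosens cell walls, lower, from 29.3, 26.2 and 31.5 to 3.99, 3.42 and 6.11 TPM. Of 11 tested cold and dehydration genes 4 rose and 0 fell (MR and Q, 3 and 1), of 6 galactinol and raffinose genes 1 rose and 3 fell, and of 4 meristem genes 2 rose and 1 fell (Q, 1 and 1).

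Markers of cell types shifted unevenly. Of 10 stomatal lineage markers 8 fell and 2 rose (MR, 8 and 1; median -1.41), and 1 rose without 22 °C library 2 or recovery library 3. EPF2 (AT1G34245), a peptide that limits the number of stomatal precursors, went from 18.4, 17.99 and 28.8 to 3.05, 2.82 and 2.43 TPM (log2 change -2.56 ± 0.19, adjusted p = 1.3e-08), and STOMAGEN (AT4G12970), a peptide from the mesophyll that promotes stomata, from 27.4, 28.4 and 38.0 to 6.28, 6.71 and 8.08 TPM. Of 13 vascular markers 5 fell and 3 rose (MR, 6 and 2; Q, 8 and 2), with the phloem sugar exporters SWEET11 (AT3G48740) and SWEET12 (AT5G23660) lower (log2 changes -1.61 ± 0.25 and -1.84 ± 0.26). Of 16 tested root markers 2 rose and 2 fell (MR and Q, 0 and 4), and 0 rose without 22 °C library 3, recovery library 1 or recovery library 2. AIR1 (AT4G12550), an auxin-induced root gene, was 105.5, 99.4 and 19.9 TPM at 22 °C and 3.37, 5.67 and 0.78 TPM at recovery, and MLP328 (AT2G01520), a latex-like protein, was 263.3, 222.1 and 24.9 TPM and 2.36, 3.5 and 2.27 TPM. Both were lowest at 22 °C in library 3, where root markers summed to 94.4 TPM, and the part of tissue content in these changes was not tested.

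PRMT5 (AT4G31120), the gene the study is about, was 27.4, 26.3 and 25.3 TPM at 22 °C and 39.0, 39.4 and 41.1 TPM at recovery. The log2 change was 0.58 ± 0.17 (adjusted p = 0.0056, limma), against 0.34 for the median gene, and under median-ratio scaling it was 0.21 and did not pass (adjusted p = 0.18). Among the other protein arginine methyltransferases, PRMT1B (AT4G29510) rose from 54.2, 51.3 and 55.8 to 112.8, 115.8 and 108.3 TPM (log2 change 1.05 ± 0.09) and PRMT3 (AT3G12270) from a mean of 20.07 to 41.7 TPM. Across the 9 genes of the family 6 rose and 2 fell (MR, 3 and 3; Q, 4 and 3), with a median of 0.55. Sm, LSm and glycine-rich RNA-binding proteins are a class that holds known PRMT5 substrates. Of 26 genes for them, 14 rose (53.8%, beside 49.9% of all genes) and 5 fell (MR, 2 and 10; Q, 8 and 6). Of 20 SR splicing factors 8 rose and 6 fell (MR, 5 and 10; Q, 8 and 8), with SCL30A (AT3G13570) lower, from 58.7, 56.99 and 60.7 to 19.9, 18.4 and 17.55 TPM. The recovery response differed between prmt5 and WT for 15 of the 30 highest and lowest genes in a test of the difference itself, beside 46.2% of all genes.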

How the data were processed

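Seedling RNA was enriched for mRNA with oligo-dT and made into libraries with a TruSeq kit, per the labels' protocols. RSEM and the TAIR10 build are named, with no version of the former, in the submitters' processing notes. The deposited table holds TPM computed by the authors, which keeps no read depth, so no counting interval or count model was used. All 6 groups of 3 libraries entered 1 fit on log2(TPM + 1) with limma 3.58.1 (lmFit, contrasts.fit, eBayes with trend; R 4.3.3) and 12 residual degrees of freedom. Genes entered the tests where their mean over the 6 libraries compared reached 1 TPM, and two-sided p-values were adjusted by Benjamini-Hochberg over all 21082, with a threshold of 0.05. A change on this scale understates that of low genes, and values of 0 were kept, with no log2 change printed for a group listed at 0 throughout. Names came from the TAIR10.1 annotation (37573 genes matched), as did promoters (19638 of 19639 nuclear protein-coding genes). The fit was tested on simulated data. Python 3.11.15, pandas 2.3.3, numpy 2.4.6 and matplotlib 3.10.9 made tables and plots.

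Genes named are the 15 highest and 15 lowest log2 changes among called nuclear protein-coding genes with a symbol, at least 5 TPM in the higher group and no overlap of libraries, the 10 largest gains and 10 largest losses in TPM, up to 4 called members of each list with the largest change, and PRMT5. Genes in the nuclear copy of the mitochondrial genome were left out of the highest, lowest, gain and loss rules. The 47 gene lists and the members were chosen with earlier results of these data known. Alternatives were pseudocounts of 0.1 and 5, a minimum of 5 TPM or none, quantile normalization, median-ratio scaling, TPM without organelle genes, a fit of the 6 libraries alone, array weights, robust eBayes, leave-one-out fits and a replicate block. Only nuclear protein-coding genes, and a fit without the 38 genes listed at 0 in a single library while the group's other libraries had 10 TPM or more, were added after seeing the data.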

Additional observations from a re-analysis of the deposited data

Results flagged for a closer look

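Of the 30 genes with the highest or lowest change in WT recovery, 15 had a different recovery response in prmt5, by the interaction term of the limma fit (adjusted p under 0.05, Benjamini-Hochberg over all genes), a share near the 46.2% of all genes. Values are the prmt5 response minus the WT response, on the log2(TPM + 1) scale, with 3 libraries in each of 4 groups.

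Those that rose in WT rose further in prmt5. The difference was 3.03 for SAG13 of senescence, which reached 2238, 2138 and 1749 TPM in prmt5 recovery, 3.30 for RNS1, a ribonuclease (1304, 1247 and 1224 TPM), and 3.29 for ELI3-2, a cinnamyl alcohol dehydrogenase relative (450.7, 479.6 and 220.2 TPM, against 45.1, 46.6 and 23.1 TPM in WT recovery). For NRT1.8, a nitrate transporter, it was 2.43, for the nuclease ENDO2 1.39, for HSP17.6C-CI, a small heat shock protein, 0.89, and for SRO3, a relative of RCD1, 0.66.

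Among genes that fell in WT, photosynthesis genes were lower still in prmt5. CA1, the carbonic anhydrase, differed by -4.04 and stood at 6.33, 10.3 and 7.01 TPM in prmt5 recovery. RBCS3B of Rubisco differed by -2.15 (116.9, 172.4 and 235.2 TPM), FBA5, an aldolase, by -2.48, and PnsL1, a subunit of the NDH complex, by -1.52. CDEF1, a cutinase, differed by -1.30 and RL4, a MYB-like gene, by -1.08.

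A pair of genes that fell in WT had positive differences. MSRB6, a methionine sulfoxide reductase, differed by 2.58 and stood at 3.2, 4 and 4.6 TPM in prmt5 recovery, from a mean of 14.3 TPM at 22 °C. For PDF1.2A, a defensin, the value was 3.31, which depends on the pseudocount. It was listed at 0 in every recovery library of both genotypes, with 22 °C means of 1.65 TPM in prmt5 and 26.03 TPM in WT.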

How the results depend on the processing

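Of 218 named genes, 203 kept their direction and their side of the threshold in every alternative run, 14 lost the call in at least 1, and 1 changed direction. That gene, IIL1 of leucine and glucosinolate synthesis, went to -0.156 under median-ratio scaling (adjusted p = 0.069). PRMT5 and MT2B ended under median-ratio scaling (log2 change 0.21 and 0.26) and SUS4 in the fit of the 6 libraries (adjusted p = 0.057). Median-ratio scaling gave 6492 genes higher and 6644 lower, and quantile normalization gave 6790 lower, beside 10524 and 3835 for TPM as deposited. Of the list counts, 39 of 94 moved by over 1.5 times under median-ratio scaling and 32 under quantile normalization. Leaving out each library in turn gave 13290 to 13815 genes called, 9777 to 10284 higher and 3397 to 3728 lower. List counts of 0 to 2 members, such as the 1 lower gene for autophagy, jasmonate or abscisic acid, moved by 1 without some libraries. Depth is unknown, so limits for low genes could not be given.

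A replicate block gave 14219 genes called, 10421 higher and 3798 lower. Deviations of same-numbered libraries correlated by 0.034, 0.141 and 0.174. Those of differently numbered libraries correlated by 0.139, 0.011, -0.051, -0.08, -0.152 and -0.208. Same-numbered values were thus all positive and most of the others negative. Whether equal numbers mark a pairing was not tested, and the main fit holds no replicate block.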

Other observations

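Several of the most extreme genes lie outside the groups described, most of them without a symbol, and were chosen after their values were seen. AT3G16670 was 379.2, 377.2 and 461.1 TPM at 22 °C and 1.95, 0 and 0.87 TPM at recovery. AT4G22520 was 73.3, 47.7 and 78.9 TPM at 22 °C and was listed at 0 in all 3 recovery libraries. AT4G09215 went the other way, from 0.27, 0.78 and 0 TPM to 124.0, 121.2 and 120.7 TPM. AT2G05375, annotated as a miscellaneous RNA, was 0, 0 and 5.44 TPM at 22 °C, 290.8, 280.0 and 221.7 TPM at recovery and 2421 TPM on average at heat end.

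Transcripts known only from the assembly were among the highest of all. MSTRG.3062 went from 0.86, 0.54 and 0.57 TPM at 22 °C to 411.6, 356.2 and 406.1 TPM at recovery (log2 change 7.89, beyond that of SAG13), with a heat end mean of 278 TPM. MSTRG.15539 was listed at 0 in all 3 libraries at 22 °C and stood at 169, 235.3 and 324.3 TPM at recovery, and MSTRG.12826 likewise at 102, 106.7 and 83.7 TPM.

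Annotated pseudogenes were higher at recovery in 139 of 175 cases and lower in 10, with a median log2 change of 1.61 beside 0.34 for all genes. Small nucleolar RNA genes had a median of -0.86, but 7 of 52 were called higher and 4 lower.

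MT1A, a metallothionein at 1059, 1934 and 896.4 TPM at 22 °C, was 1295 TPM in recovery library 1 and listed at 0 in the other recovery libraries, values that leave its level at recovery undetermined.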
